A study of Mus musculus with 200 samples.

Results

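The genes of the circadian clock described here are 10 transcriptional repressors and clock-controlled transcription factors, Per1, Per2, Per3, Cry1, Cry2, Nr1d1, Nr1d2, Dbp, Tef and Ciart, chosen by symbol from the 56941 genes of the deposited count table. All 10 were listed once and had enough counts to be tested in every comparison, with a lowest count of 68 for any of them in any mouse. On GRCm39 with the GENCODE vM39 annotation, all are protein-coding genes: Per1 at chr11:68986035-69002300, Per2 at chr1:91343700-91387069, Per3 at chr4:151081373-151129140, Cry1 at chr10:84967560-85021252, Cry2 at chr2:92233894-92264474, Nr1d1 at chr11:98658752-98666188, Nr1d2 at chr14:4230545-4266624, Dbp at chr7:45354512-45359627, Tef at chr15:81686622-81711064 and Ciart at chr3:95785815-95789991.

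In mammalian cells CLOCK and BMAL1 activate genes through E-box motifs, and the PER and CRY proteins they induce return to the nucleus and shut CLOCK and BMAL1 down, so that the transcripts of the loop rise and fall over the day. A second loop runs through the nuclear receptors REV-ERBα and REV-ERBβ, encoded by Nr1d1 and Nr1d2, which repress Bmal1, and the proline- and acidic amino acid-rich leucine zipper factors DBP and TEF carry the rhythm to output genes through D-box motifs. Clocks run in most cells of the forebrain and are set by the suprachiasmatic nucleus of the hypothalamus, and glucocorticoids and neuronal activity can also alter the transcription of some members, Per1 among them.

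RNA was sequenced from 200 mouse brains, one hemisphere per mouse by the study's methods, after closed head injury (CHI, a blunt impact on the intact skull) or sham surgery. There were n = 46 CHI mice at 9 h, n = 43 at 24 h and n = 44 at 72 h and 67 sham mice (n = 22, 22 and 23). Of these mice 98 were labelled male and 102 female, and they were 3.3 to 7.67 months old. Of the 4 strains, C57BL/6J had 61 mice, IL-1R1 gKO had 55, IL-1R1 eRestore had 50 and IL-1R1 nRestore had 34. The last 3 are named for the type 1 interleukin-1 receptor, and the labels do not say how their alleles were made or which cells they affect. All mice underwent surgery, had food at all times and, per the labels, lived under 14 h of light and 10 h of dark, whereas the methods state a 12-hour cycle. At 9, 24 and 72 h the CHI groups held 15, 14 and 14 C57BL/6J mice, 13, 12 and 12 gKO mice, 12, 9 and 12 eRestore mice and 6, 8 and 6 nRestore mice. The sham groups held 6, 6 and 6 C57BL/6J mice, 6, 6 and 6 gKO mice, 6, 5 and 6 eRestore mice and 4, 5 and 5 nRestore mice.

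By the study's methods, which describe only the 61 C57BL/6J mice, surgery was done in the morning. Tissue collected at 9 h therefore came from later in the day than tissue collected at 24 and 72 h. For the IL-1R1 strains the hour of surgery is assumed here to be the same. The mice came from 8 experiments, of which 3 had mice at 9 h, 3 at 24 h and 4 at 72 h, with 2 spanning 24 and 72 h and 0 spanning 9 h and a later time. Time after surgery, time of day and experiment therefore cannot be told apart between 9 h and the later times, in sham or in CHI mice. Age followed time as well, and comparisons between times did not adjust for it. C57BL/6J sham mice were 4.4 to 4.8 months old at 9 h and 5.17 to 6.8 at 72 h. In gKO sham mice the ages overlapped, at 3.3 to 4.73 and 4.6 to 6.53 months. CHI and sham mice of one time point were collected at the same hour after surgery, and at 9 h each experiment gave both CHI and sham mice of every strain it held. At 24 h, however, 1 experiment gave 18 of the 43 CHI mice and only 1 of the 22 sham mice, a C57BL/6J mouse. In the other three strains 13 CHI mice at 24 h therefore had no sham mouse of their experiment and strain. CHI and experiment are partly confounded at that time. Both sexes were in every group of C57BL/6J, gKO and eRestore mice, but sex followed time in nRestore mice. By their labels, 1 of 6 CHI and 1 of 4 sham mice of this strain were male at 9 h. At 24 h it was 1 of 8 and 3 of 5, and at 72 h 6 of 6 and 5 of 5. Sex and time can therefore hardly be told apart between 9 and 72 h in this strain.

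Total counts ran from 14857985 to 57355676 per mouse, with a median of 20258936. The receptor gene Il1r1 was not lower in the mice labelled gKO, at 10.2 ± 2.48 CPM (reads counted for the gene, scaled to the library total with TMM factors; mean ± SD, n = 55) against 5.77 ± 2.01 in C57BL/6J mice (n = 61), 8.05 ± 2.42 in eRestore mice (n = 50) and 9.68 ± 1.88 in nRestore mice (n = 34). A gene total can miss an allele that leaves most of the transcript in place, and the strains are named here only as the labels name them. In 2 mice labelled male, 1 sham eRestore mouse at 24 h and 1 CHI nRestore mouse at 72 h, Xist and Ddx3y had the female pattern, and results without them are given in the closing section. Defining markers of neurons, astrocytes, microglia and oligodendrocytes were detected in every mouse. Fewer cells of a type and less RNA per cell cannot be told apart in such samples.

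The promoters of 7 members are shown first, because motifs through which clock proteins act can be read in them. In the 250 bases before the annotated start (GENCODE vM39, GRCm39, principal transcript), both strands were searched for the E-box CACGTG, the weaker E-box variant CACGTT, the D-box TTANGTAA and the cAMP response element TGACGTCA, and for the ROR element (RORE) bound by REV-ERB proteins. An E-box lay in this window in 4 of the 10 members (Per1, Cry1, Tef and Ciart), against 6.261% of 21770 promoters of protein-coding genes. The variant CACGTT lay in 3 (Cry1, Cry2 and Nr1d1) against 4.157%, the D-box in 2 (Per2 and Per3) against 2.076%, and the RORE in 1 (Dbp) against 0.3032%. The cAMP response element had 0 matches among the members in this window, where 1.695% of promoters held one. A palindromic glucocorticoid response element was also searched for and had 0 matches among the members in 250 bases or in 1000 bases, against 0.2986% and 1.566% of promoters. Matches are letters in a window and no measure of binding. Below, each run is the stretch of the window that no annotated exon on its strand covers, 5′ to 3′, with the motif letters in capitals (an E-box in Ciart, Per1 and Tef, the variant on the opposite strand in Nr1d1 and Cry2, and a D-box in Per2 and Per3).
Ciart chr3:95789564-95789644 (minus strand): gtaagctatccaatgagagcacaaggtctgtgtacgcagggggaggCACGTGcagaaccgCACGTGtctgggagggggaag
Per1 chr11:68989018-68989267 (plus strand): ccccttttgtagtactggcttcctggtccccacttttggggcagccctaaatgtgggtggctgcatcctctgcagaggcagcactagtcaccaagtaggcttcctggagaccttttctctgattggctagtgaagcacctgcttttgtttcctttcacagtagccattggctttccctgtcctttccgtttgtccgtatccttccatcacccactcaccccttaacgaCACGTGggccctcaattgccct
Tef chr15:81695365-81695614 (plus strand): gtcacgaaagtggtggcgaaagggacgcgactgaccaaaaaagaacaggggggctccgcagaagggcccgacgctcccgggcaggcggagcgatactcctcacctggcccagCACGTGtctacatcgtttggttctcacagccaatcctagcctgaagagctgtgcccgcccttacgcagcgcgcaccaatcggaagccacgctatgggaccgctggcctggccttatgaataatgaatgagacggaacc
Nr1d1 chr11:98666189-98666409 (minus strand): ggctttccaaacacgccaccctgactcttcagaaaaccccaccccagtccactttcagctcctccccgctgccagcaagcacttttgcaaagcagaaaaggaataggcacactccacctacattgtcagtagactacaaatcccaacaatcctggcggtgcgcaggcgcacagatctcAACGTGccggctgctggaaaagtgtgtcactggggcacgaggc
Cry2 chr2:92264475-92264593 (minus strand): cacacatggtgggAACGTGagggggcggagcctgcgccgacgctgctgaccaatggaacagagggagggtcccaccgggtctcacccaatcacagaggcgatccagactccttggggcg
Per2 chr1:91387070-91387296 (minus strand): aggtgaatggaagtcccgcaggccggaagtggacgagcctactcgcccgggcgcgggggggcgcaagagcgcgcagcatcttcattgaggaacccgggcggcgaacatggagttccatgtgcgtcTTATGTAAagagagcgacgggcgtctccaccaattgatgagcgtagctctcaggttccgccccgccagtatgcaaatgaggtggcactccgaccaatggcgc
Per3 chr4:151129141-151129390 (minus strand): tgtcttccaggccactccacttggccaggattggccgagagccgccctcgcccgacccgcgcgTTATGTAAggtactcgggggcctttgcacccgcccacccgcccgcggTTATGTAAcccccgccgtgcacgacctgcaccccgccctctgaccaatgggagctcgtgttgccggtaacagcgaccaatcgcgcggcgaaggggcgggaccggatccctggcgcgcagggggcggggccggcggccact
The Ciart window held 3 E-boxes, 100, 42 and 28 bases before the start, of which the later 2 lie in the run shown. The 3 members not shown had no match in such a stretch. The Cry1 window was covered by exons throughout, the RORE of Dbp lay under an exon, and Nr1d2 had no match in the window. In Per1 the E-box began 22 bases before the start. Per3 held the D-box at 2 places and Per2 at 1.

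In sham mice all 10 genes were expressed, and their order per transcript length was read from TPM values, which the deposited table scales for transcript length and library total, averaged over the 67 sham mice. Tef was the most abundant at 177.9 ± 16.6 TPM (SD). Nr1d2 (69.0 ± 6.25), Nr1d1 (67.2 ± 19.1), Dbp (65.2 ± 16.0) and Cry2 (63.9 ± 8.93) followed at levels whose spreads overlapped, so their order among themselves is not resolved. Per1 stood lower at 32.4 ± 10.5 TPM. Ciart, which encodes a repressor of CLOCK and BMAL1, had 17.1 ± 7.25 TPM, Cry1 14.3 ± 2.37, Per2 9.87 ± 2.86 and Per3 8.59 ± 1.59, and each of these 4 overlapped its neighbour in this order. Variation among sham mice of one strain and time was smallest for Tef, with a median coefficient of variation of 5.35%, and for Nr1d2 at 6.80%, and largest for Ciart at 23.3%, Per1 at 22.5% and Per2 at 21.9%.

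The first comparison asked how sham levels differed with the time of collection. Ciart, Nr1d1 and Dbp were called lower at 24 or 72 h than at 9 h in all 4 strains. Per1 and Cry2 were called lower in C57BL/6J and gKO mice only, whereas Per2, Per3, Cry1, Nr1d2 and Tef passed the test in none of the 4 strains. Over all 22 sham mice at 9 h, Ciart was at 15.0 ± 3.61 CPM (SD), against 6.97 ± 1.47 at 24 h (n = 22) and 6.30 ± 1.09 at 72 h (n = 23). By the same measure Nr1d1 went from 122 ± 20.3 CPM at 9 h to 72.9 ± 14.0 and 73.4 ± 12.4, and Dbp from 64.95 ± 13.3 to 46.7 ± 6.00 and 42.2 ± 5.67. Each strain was tested alone with edgeR, with sex as a covariate, and the calls at an adjusted p under 0.05 were 14 of 40 (10 genes in 4 strains) for 24 against 9 h and 13 of 40 for 72 against 9 h, all lower than at 9 h. Both comparisons use the same 9 h sham mice. By strain, the calls were 4 and 5 of 10 in C57BL/6J (24 and 72 h) and 5 and 3 in gKO. In eRestore mice they were 2 and 3, and in nRestore mice 3 and 2. Over all genes tested, the share called in either direction was 23.4% and 25.5% in C57BL/6J (24 and 72 h against 9 h), 14.1% and 4.64% in gKO, 1.47% and 5.12% in eRestore and 5.91% and 0.346% in nRestore mice. Between 72 and 24 h, 0 of 40 were called by edgeR, with 2 at an unadjusted p under 0.05, where 0.00577% of all genes were called in nRestore mice and 0% in the others.

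**Figure D1:**
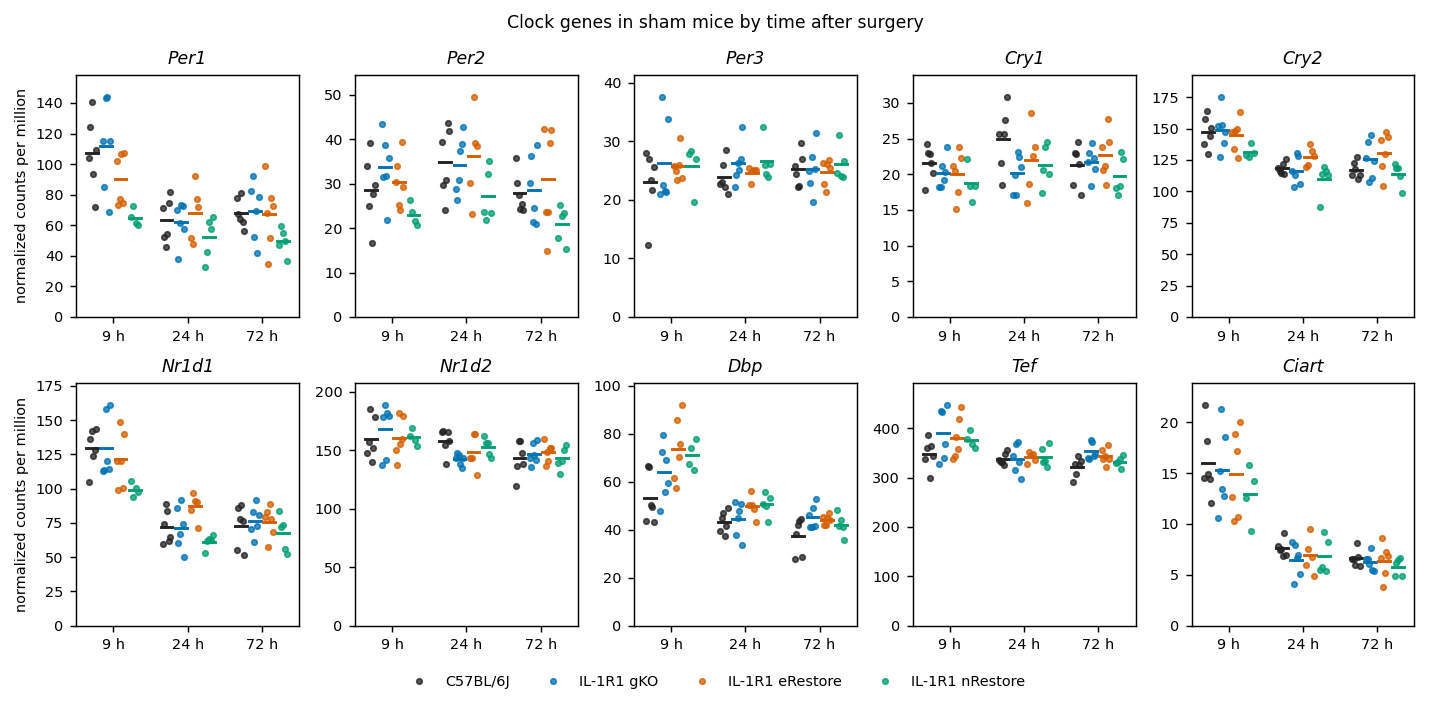
Normalised counts (CPM) of the 10 clock genes in each sham mouse (y axes, one panel per gene) by hours after surgery (x axis), with colours for the 4 strains and bars at the group means. Ciart and Nr1d1 at 9 h lie above all values of the same strain at 24 and 72 h, while Per3 and Cry1 overlap at all times.

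Ciart had the largest fall of the members in sham mice, and its values at 9 h did not overlap those at either later time in any of the 4 strains. In C57BL/6J sham mice the lowest, median and highest Ciart values were 12.1, 14.7 and 21.7 CPM at 9 h, 6.86, 7.52 and 9.06 at 24 h and 5.87, 6.54 and 8.17 at 72 h (n = 6 each). In the 4 nRestore sham mice at 9 h Ciart was at 12.5, 15.8, 9.30 and 14.2 CPM, in the 5 at 24 h at 5.51, 5.73, 9.23, 5.37 and 8.23, and in the 5 at 72 h at 4.93, 6.17, 6.49, 6.61 and 4.86. The lowest nRestore mouse at 9 h thus stood just above the highest at 24 h. The share of all genes whose later sham values lay wholly below those of 9 h was 4.73% and 4.35% in C57BL/6J (24 and 72 h), 2.83% and 1.78% in gKO, 2.17% and 1.42% in eRestore and 8.57% and 6.13% in nRestore mice. At 24 h Ciart fell by 1.06 on the log2 scale in C57BL/6J (SE 0.13, adjusted p = 1.9e-05), 1.23 in gKO (SE 0.18, adjusted p = 0.0010), 1.11 in eRestore (SE 0.22, adjusted p = 0.018) and 1.04 in nRestore mice (SE 0.18, adjusted p = 0.0082). The C57BL/6J difference is a level 0.479 times that at 9 h. At 72 h the differences were -1.24, -1.28, -1.21 and -1.37 in the same order of strains, with adjusted p-values of 2.9e-06, 0.00090, 0.0029 and 0.018. Without sex as a covariate the nRestore difference at 72 h was -1.14 (adjusted p = 0.0043). In eRestore mice the call at 24 h was lost without replicate 1 or 4 of the 24 h mice, the latter the mouse of mismatched sex (adjusted p = 0.068 and 0.054). In nRestore mice it was lost without replicate 1 of 24 h (adjusted p = 0.0503) and that at 72 h without replicate 4 of 9 h (adjusted p = 0.067), both still lower than at 9 h.

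Nr1d1, the gene of REV-ERBα, was likewise without overlap between 9 h and either later time in all 4 strains. The shares of all genes with such a gap are those given for Ciart. In C57BL/6J sham mice its lowest, median and highest values were 104.99, 132 and 143.4 CPM at 9 h, 59.9, 69.5 and 89.1 at 24 h and 51.9, 76.9 and 88.3 at 72 h. In nRestore sham mice Nr1d1 was at 105.4, 94.0, 100.1 and 97.4 CPM at 9 h, at 52.8, 61.7, 62.9, 62.8 and 66.2 at 24 h and at 83.8, 72.3, 73.4, 56.0 and 52.4 at 72 h. All later mice of this strain lay under its 9 h mice. The fall passed the test in 6 of the 8 strain and time pairs, by 0.84 (SE 0.13, adjusted p = 0.00028) and 0.83 (SE 0.13, adjusted p = 0.00029) in C57BL/6J, 0.85 and 0.75 in gKO, 0.66 in eRestore at 72 h and 0.71 in nRestore at 24 h. The other two differences were -0.47 in eRestore at 24 h (adjusted p = 0.056) and -0.59 in nRestore at 72 h (adjusted p = 0.062), and the nRestore call at 24 h was lost without replicate 1 of 24 h (adjusted p = 0.0503). Exons of Nr1d1 overlap those of Thra on the opposite strand by 1711 bases. Whether the counting used strand is not given in the sources used here, so reads from that stretch cannot be assigned with certainty, and the same holds for shorter exonic overlaps of 250 to 1109 bases in Per1, Per3, Cry2, Dbp, Tef and Ciart. Its paralogue Nr1d2 had 162.4 ± 16.7 CPM at 9 h, 150.4 ± 11.2 at 24 h and 145.2 ± 10.2 at 72 h (SD, n = 22, 22 and 23), and its groups overlapped.

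Dbp, the D-box activator, was lower at both later times in all strains and passed the test in 7 of 8 pairs, the exception being C57BL/6J at 24 h (-0.30, adjusted p = 0.10). In C57BL/6J sham mice Dbp ranged from 43.3 to 66.5 CPM at 9 h (median 49.8), from 37.5 to 49.0 at 24 h (median 43.2) and from 27.8 to 44.3 at 72 h (median 40.2), so the groups overlapped. In nRestore sham mice Dbp was at 67.3, 74.1, 64.7 and 77.7 CPM at 9 h, at 50.8, 55.7, 50.1, 43.1 and 53.3 at 24 h and at 48.0, 41.4, 43.8, 41.1 and 35.5 at 72 h. Here, and in eRestore mice, 9 h stood clear of both later times. Such a gap was seen for 8.57% and 6.13% of all genes in nRestore (24 and 72 h) and 2.17% and 1.42% in eRestore mice. The called falls ran from 0.47 in nRestore at 24 h (SE 0.10, adjusted p = 0.016) to 0.73 in eRestore at 72 h (SE 0.10, adjusted p = 0.00055). Both nRestore calls were lost without replicate 4 of 9 h (adjusted p = 0.13 at either time), that at 24 h also without replicate 1 of 24 h (adjusted p = 0.071), and that of gKO at 72 h without any of 4 mice (adjusted p = 0.061 to 0.083). Tef, the other leucine zipper factor among the members, averaged 374 ± 40.4 CPM at 9 h against 340 ± 18.6 at 24 h and 338 ± 19.3 at 72 h, and no strain passed the test.

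Per1, a PER repressor that responds quickly to stimuli, fell by 0.75 on the log2 scale at 24 h (SE 0.16, adjusted p = 0.0028) and by 0.64 at 72 h (SE 0.16, adjusted p = 0.0069) in C57BL/6J sham mice, where its values were 72.2 to 140.6 CPM at 9 h (median 106.6), 45.9 to 81.8 at 24 h (median 63.0) and 56.5 to 81.2 at 72 h (median 65.6). These groups overlapped. In gKO mice Per1 fell by 0.83 at 24 h (SE 0.22, adjusted p = 0.022), and the other 5 differences, from -0.40 to -0.68, did not pass the test. The gKO call was lost without either of 2 mice (adjusted p = 0.059 and 0.061). Cry2, which encodes a flavoprotein repressor, fell by 0.31 (SE 0.06, adjusted p = 0.0018) and 0.32 (SE 0.06, adjusted p = 0.0014) in C57BL/6J and by 0.34 in gKO at 24 h (SE 0.09, adjusted p = 0.020, and 0.0502 to 0.057 without any of 3 mice). C57BL/6J Cry2 values at 9 h, 129.7 to 163.8 CPM with a median of 147.04, did not overlap those at 24 h (113.8 to 125.5, median 117.5) or 72 h (109.97 to 126.9, median 115.5). In this strain 4.73% and 4.35% of all genes had such a gap. The remaining repressors Per2, Per3 and Cry1 averaged 29.5, 25.1 and 20.3 CPM at 9 h over all sham mice, 33.2, 25.3 and 22.1 at 24 h and 27.4, 25.3 and 21.4 at 72 h.

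**Figure D2:**
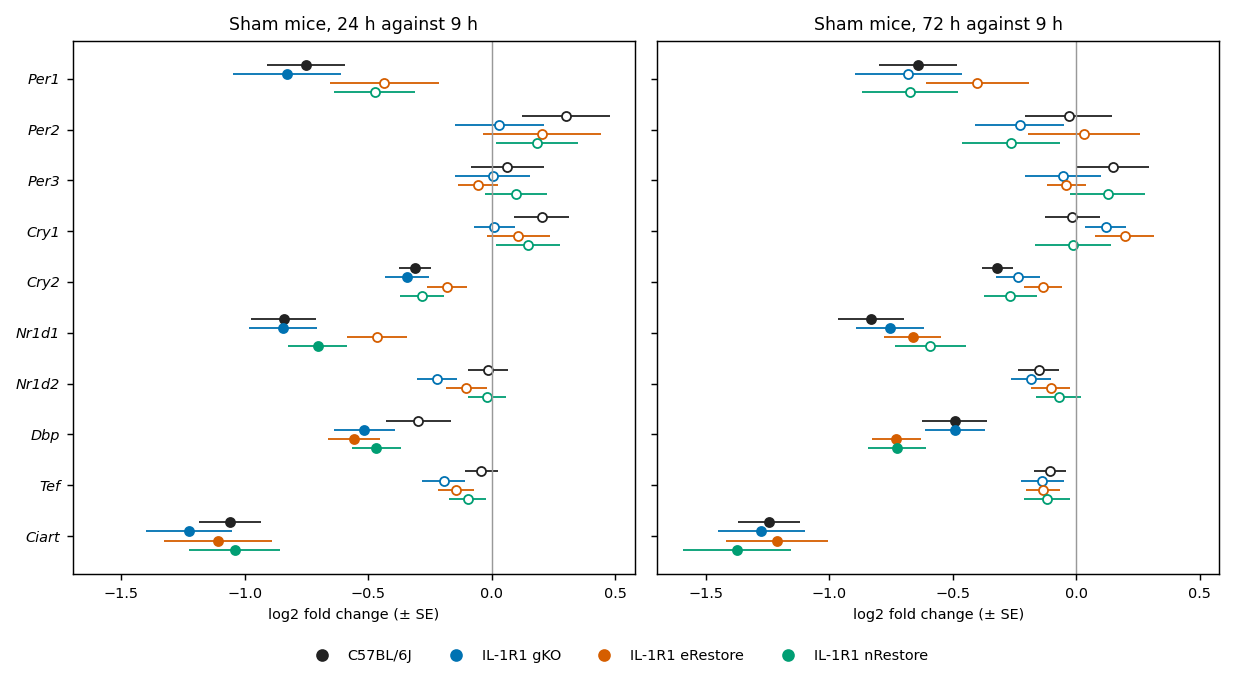
Log2 difference of each clock gene between sham mice at 24 or 72 h and sham mice at 9 h (x axis), per strain, with lines of ± SE from edgeR. Filled points passed an adjusted p of 0.05: Ciart lies furthest left in every strain and Per2, Per3, Cry1, Nr1d2 and Tef have no filled point.

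CHI mice, which share no animal with the sham mice, were compared between times in the same way. Of 40 differences, 26 were called for 24 against 9 h and 26 for 72 against 9 h, with 25 lower and 1 higher in each. By strain, the calls were 7 and 6 of 10 in C57BL/6J (24 and 72 h) and 6 and 6 in gKO. In eRestore mice they were 7 and 10, and in nRestore mice 6 and 4. The share of all genes called was 61.7% and 64.3% in C57BL/6J, 40.2% and 36.4% in gKO, 42.9% and 46.3% in eRestore and 31% and 13.2% in nRestore mice. In C57BL/6J the member counts were thus near the share over all genes. Ciart fell in all 4 strains, by 0.78 to 1.34 at 24 h and by 0.91 to 1.40 at 72 h on the log2 scale, and Nr1d1 by 0.63 to 0.81 and 0.67 to 0.87. Tef, which passed in no sham comparison, fell in all 4 strains of CHI mice, by 0.32, 0.33, 0.33 and 0.40 at 24 h (C57BL/6J, gKO, eRestore and nRestore) and by 0.38, 0.37, 0.48 and 0.36 at 72 h. In CHI mice of nRestore its 9 h range of 431 to 494 CPM lay above 328 to 375 at 24 h and 320 to 381 at 72 h. The share of all genes with such a gap was 4.79% and 5.84% in nRestore mice. Dbp fell in all pairs but C57BL/6J at 72 h, where the difference was -0.06 (adjusted p = 0.49). The only members called higher were Per2 in C57BL/6J, by 0.54 at 24 h (SE 0.12, adjusted p = 8.9e-05) and 0.48 at 72 h (SE 0.12, adjusted p = 0.00042), whereas in eRestore Per2 fell by 0.37 at 72 h (SE 0.15, adjusted p = 0.036). Between 72 and 24 h, 0 of 40 were called by edgeR, with 5 at an unadjusted p under 0.05, where 1.34% of all genes were called in C57BL/6J, 0.00601% in gKO, 0.00583% in nRestore and 0% in eRestore mice.

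The question of the injury itself was addressed by comparing CHI with sham mice of the same strain and time, with sex and age as covariates. At 9 h, Tef rose 1.25- to 1.27-fold after CHI in 3 of the 4 strains, Cry2 fell slightly in C57BL/6J mice, and the other members did not pass the test in any single strain. The calls were 4 of 40 at 9 h, where 14.1% of all genes were called in C57BL/6J, 0.199% in gKO, 7.34% in eRestore and 0.608% in nRestore mice. At 24 h 0 of 40 members were called, with 6 at an unadjusted p under 0.05, and at 72 h 0 of 40, with 5. The share of all genes called at 24 h was 0.404% in C57BL/6J, 0.0059% in gKO and 0% in the other two strains, and at 72 h 0.00605% in eRestore, 0.0121% in nRestore and 0% in the others.

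In C57BL/6J mice at 9 h, Tef had a lowest, median and highest value of 387, 437 and 527 CPM after CHI (n = 15) and 299, 352 and 387 after sham surgery (n = 6). All 15 CHI mice lay above the highest sham mouse, though the closest pair were at 386.9 and 386.8 CPM. Such a gap in the higher direction was seen for 0.955% of genes. In nRestore mice the CHI values were 431, 463 and 494 CPM (n = 6) and the 4 sham mice were at 379, 397, 368 and 359 CPM, again without overlap, as for 2.64% of genes. In eRestore mice Tef was at 412, 473 and 567 CPM after CHI (n = 12) and 337, 371 and 443 after sham (n = 6), with 8 of the 12 CHI mice above all sham mice. In gKO mice the values were 397, 465 and 502 (n = 13) and 327, 400 and 446 (n = 6), with 7 of 13 above all sham mice. The increase in Tef was 0.34 in C57BL/6J (SE 0.05, 95% interval 0.23 to 0.45, adjusted p = 8.2e-05), which is 1.27-fold, 0.32 in eRestore (SE 0.06, interval 0.19 to 0.45, adjusted p = 0.0045) and 0.34 in nRestore mice (SE 0.07, interval 0.18 to 0.50, adjusted p = 0.034). The eRestore call was lost within either of its 2 experiments alone, with differences of 0.25 (adjusted p = 0.15) and 0.28 (adjusted p = 0.10). The nRestore call was lost without any of 3 of the 4 sham mice, with differences of 0.33 to 0.37 and adjusted p-values of 0.098 to 0.21. In gKO mice it was 0.20 (SE 0.08, interval 0.03 to 0.37, adjusted p = 0.34) and did not pass. The difference in the Tef effect between gKO and C57BL/6J mice was itself tested and was -0.14 (interval -0.33 to 0.04, adjusted p = 0.97), so a weaker response in gKO mice was not shown. For eRestore and nRestore mice the differences from C57BL/6J were -0.03 (interval -0.19 to 0.13) and -0.00065 (interval -0.17 to 0.17). All 3 strain differences use the same C57BL/6J mice.

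**Figure D3:**
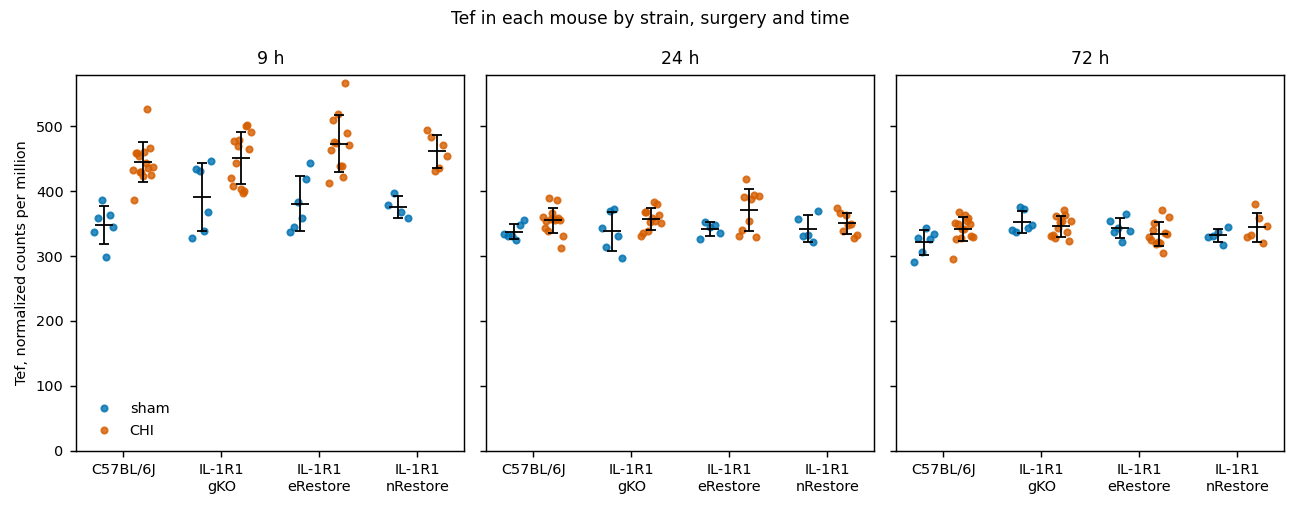
Normalised counts (CPM) of Tef in each of the 200 mice (y axis), by strain, surgery and hours after surgery (x axis), with bars at the group means. At 9 h the C57BL/6J and nRestore CHI mice lie above all sham mice of their strain, and at 24 and 72 h CHI and sham mice overlap.

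Cry2 fell by 0.16 on the log2 scale in C57BL/6J mice at 9 h (SE 0.04, interval -0.25 to -0.06, adjusted p = 0.017), and did not pass in 4 of 14 alternatives. These were without covariates (adjusted p = 0.089), without the filter on low counts (adjusted p = 0.095) and within either experiment alone (-0.17, adjusted p = 0.11, and -0.13, adjusted p = 0.47). Its lowest, median and highest values were 114.1, 136.98 and 152.3 CPM after CHI and 129.7, 147.04 and 163.8 after sham surgery, with 6 of 15 CHI mice under all sham mice. Several members came near the threshold at 9 h without passing it. Among them were Per3 in eRestore (0.30, adjusted p = 0.051) and nRestore mice (0.42, adjusted p = 0.13) and Ciart in C57BL/6J (0.23, adjusted p = 0.077). Others were Nr1d1 in eRestore (0.25, adjusted p = 0.082) and Per1 in C57BL/6J (-0.18, adjusted p = 0.14) and gKO (-0.45, adjusted p = 0.18). DESeq2 with its own size factors called Per3 in eRestore (adjusted p = 0.022) and nRestore mice (adjusted p = 0.043). Over the 40 pairs at 24 h the differences ran from -0.37 to 0.34, and at 72 h from -0.28 to 0.36.

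**Figure D4:**
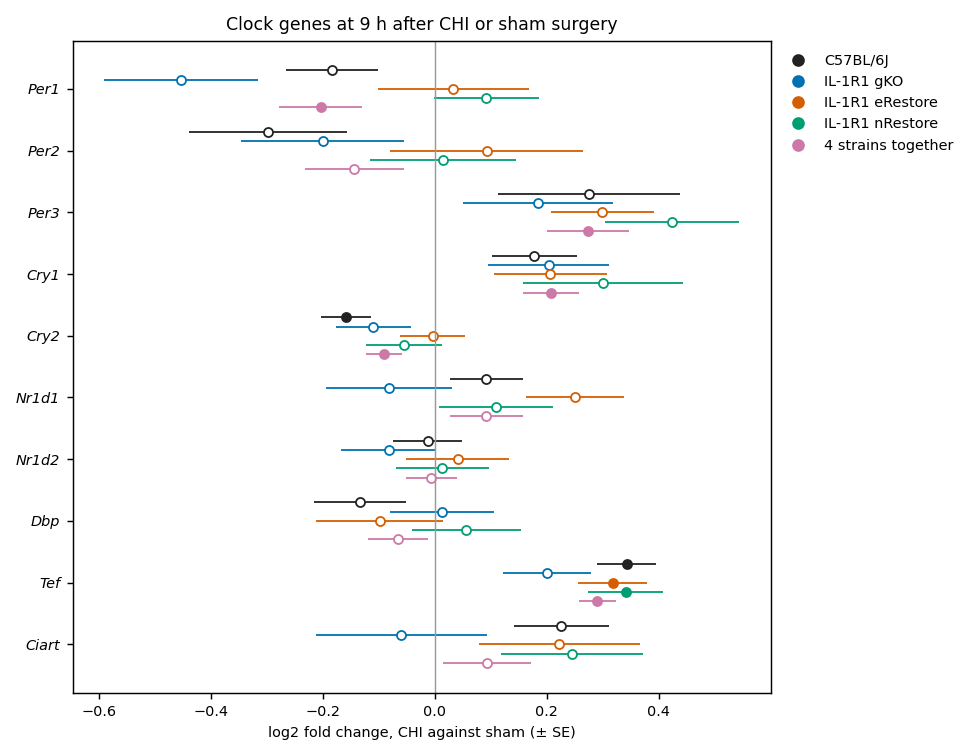
Log2 difference between CHI and sham mice at 9 h for each clock gene (x axis), per strain and over the 4 strains, with lines of ± SE from edgeR. Filled points passed an adjusted p of 0.05: Tef lies right of 0 in every strain, and Per3 and Cry1 lie right of 0 and Per1 and Cry2 left of it when the strains are fitted together.

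With all 68 mice of the 4 strains fitted together at 9 h, with strain as a further covariate, 5 of the 10 members were called, against 23.9% of all genes. These mice are those of the separate strain fits. The output factor Tef rose by 0.29 (SE 0.03, interval 0.22 to 0.36, adjusted p = 1.7e-10), from 374 ± 40.4 CPM in 22 sham mice to 456 ± 37.4 in 46 CHI mice (SD), and 25 of the 46 CHI mice lay above the highest sham mouse of any strain. Among the repressors, Per3 rose by 0.27 (SE 0.07, interval 0.13 to 0.42, adjusted p = 0.0034), with a lowest, median and highest value of 18.3, 29.6 and 42.5 CPM after CHI and 12.3, 25.3 and 37.6 after sham. The Per3 groups overlapped widely, with 4 of 46 CHI mice above all sham mice. Cry1 rose by 0.21 (SE 0.05, interval 0.11 to 0.31, adjusted p = 0.0012), from a sham range of 15.1 to 24.2 CPM (median 20.4) to a CHI range of 16.1 to 32.7 (median 23.0), with 18 of 46 CHI mice above all sham mice.

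Per1 fell by 0.20 in the same fit (SE 0.07, interval -0.35 to -0.06, adjusted p = 0.036), with values of 54.3, 77.9 and 141.4 CPM after CHI and 60.0, 97.6 and 144.2 after sham (lowest, median and highest). Only 5 of 46 CHI mice lay under all sham mice. The Per1 call was lost in 6 of 13 alternatives. The adjusted p was 0.053 without replicate 2 of the nRestore sham mice and 0.059 with strain as the only covariate. It was 0.068 without the filter on low counts, 0.078 with DESeq2 and gene-length offsets, and 0.54 and 0.60 within 2 of the 3 experiments alone. Cry2 fell by 0.09 (SE 0.03, interval -0.16 to -0.03, adjusted p = 0.034), and 11 of 46 CHI mice lay under all sham mice. Its call was lost in 3 of 13 alternatives, without the filter (adjusted p = 0.079) and within 2 of the experiments alone (adjusted p = 0.27 and 0.73). Ciart, Nr1d1 and Dbp, which like Per1 and Cry2 were called between sham times, did not pass with CHI at 9 h: Ciart differed by 0.09 (interval -0.06 to 0.25, adjusted p = 0.43), Nr1d1 by 0.09 (interval -0.04 to 0.22, adjusted p = 0.33) and Dbp by -0.07 (interval -0.17 to 0.04, adjusted p = 0.41). Per2 (-0.14, adjusted p = 0.25) and Nr1d2 (-0.01, adjusted p = 0.94) also stayed short of the threshold.

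The 9 h mice came from 3 experiments, here called a (22 CHI and 9 sham mice), b (12 and 7) and c (12 and 6), and each was also fitted alone. Tef was higher after CHI within every experiment, by 0.25 in a (adjusted p = 0.00013), 0.33 in b (adjusted p = 2.4e-05) and 0.26 in c (adjusted p = 0.029). Per3 differed by 0.28, 0.29 and 0.18 and passed in b, with an adjusted p of 0.038. Cry1 differed by 0.20, 0.09 and 0.28 and passed in a (adjusted p = 0.040). Per1 was at -0.11, -0.44 and -0.11 and Cry2 at -0.08, -0.14 and -0.04, and both passed in experiment b (adjusted p = 0.040 and 0.021). The Per1 difference was thus of greatest size in experiment b and smaller in the other two. In the 3 CHI and 2 sham gKO mice of experiment b, Per1 differed by -0.93 (edgeR, adjusted p = 0.00060). That fit was a setting chosen after seeing the data.

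At 24 h 0 of 10 members were called over the 4 strains by edgeR, with 3 at an unadjusted p under 0.05, where 1.48% of all genes were called. At 72 h it was 0 of 10, with 2 at an unadjusted p under 0.05, against 0.706%. At 24 h 0 of 10 were also called with experiment as a covariate in place of age, and within each of the 2 experiments that gave more than 1 sham mouse. Tef differed by 0.07 at 24 h (interval 0.02 to 0.12, adjusted p = 0.18, and 0.06 with experiment as a covariate, adjusted p = 0.32) and by 0.01 at 72 h (interval -0.03 to 0.06, adjusted p = 0.96). Its CHI mean went from 456 ± 37.4 CPM at 9 h to 358 ± 22.3 at 24 h and 341 ± 18.4 at 72 h. Nr1d1 at 24 h (0.16, adjusted p = 0.15) and Ciart at 72 h (0.17, adjusted p = 0.56) also had intervals above 0 without passing.

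Whether the effect of CHI itself differed between times was tested in one fit of all 200 mice, with strains weighted equally. The effect at 9 h exceeded that at 24 h for Tef by 0.21 (SE 0.04, adjusted p = 1.4e-05) and for Per3 by 0.26 (SE 0.08, adjusted p = 0.022, and 0.052 without replicate 3 of the nRestore sham mice at 9 h), while Cry1 was at 0.18 (adjusted p = 0.066). These are 2 of 10 members, against 9.37% of all genes. Against 72 h the 9 h effect was larger for Tef by 0.27 (SE 0.04, adjusted p = 8.3e-09), for Per3 by 0.30 (SE 0.08, adjusted p = 0.0069) and for Cry1 by 0.23 (SE 0.07, adjusted p = 0.011), 3 of 10 against 11.7%. Both differences hold the same 9 h mice, and that against 24 h rests on the uneven experiments of the 24 h mice. Per1 and Cry2 were not called in either (adjusted p = 0.30 and 0.34 against 24 h). Between 24 and 72 h the count was 0 of 10 by edgeR, also at an unadjusted p under 0.05, with 0.0298% of all genes called.

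**Figure D5:**
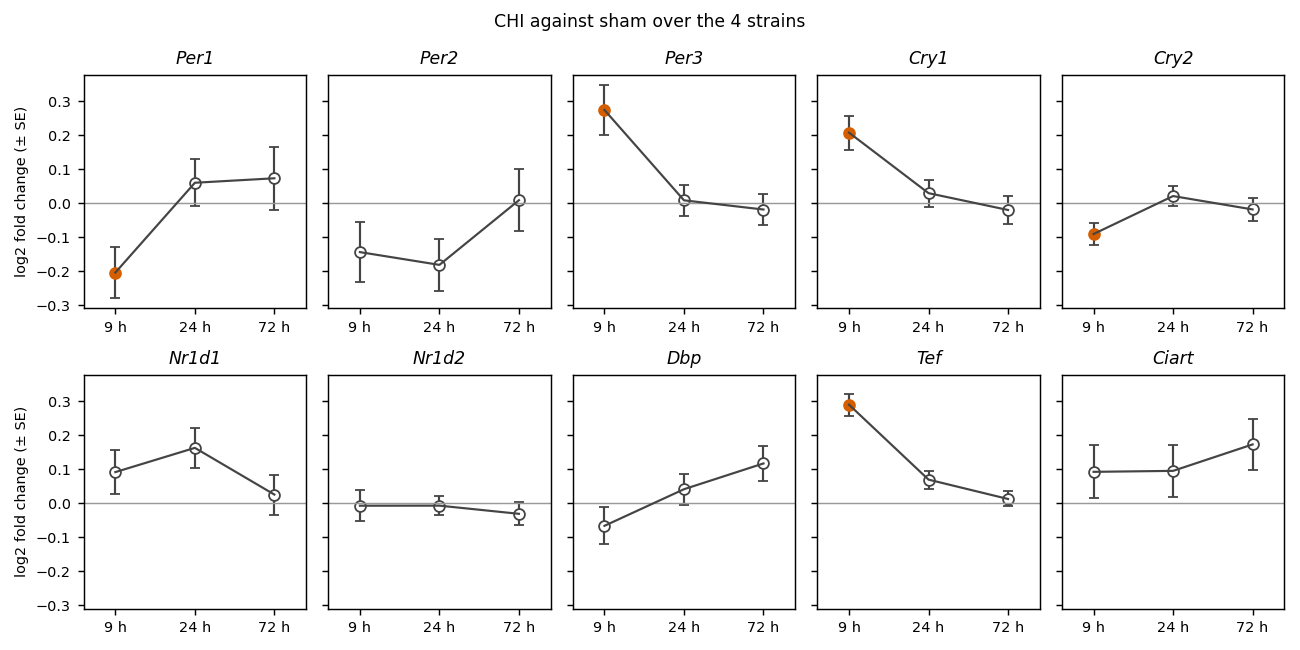
Log2 difference between CHI and sham mice over the 4 strains (y axis) at 9, 24 and 72 h (x axis), one panel per clock gene, with lines of ± SE from edgeR. Tef, Per3 and Cry1 lie above 0 at 9 h and Per1 and Cry2 below 0, and filled points, those past an adjusted p of 0.05, occur at 9 h only.

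Sham levels were compared between each IL-1R1 strain and C57BL/6J, and 0 of 90 differences (10 genes, 3 strains, 3 times) were called by edgeR, with 15 at an unadjusted p under 0.05. The share of all genes called ran from 0.0858% (nRestore, 9 h) to 1.07% (nRestore, 24 h). Dbp in eRestore mice at 9 h had the smallest adjusted p, with 0.58 (SE 0.15, interval 0.24 to 0.91, adjusted p = 0.18). Per1 in nRestore mice at 9 h had the difference of greatest size, -1.01 (adjusted p = 0.42). Without covariates it was -0.72 (adjusted p = 0.025). These mice came from 1 experiment, which held 0 C57BL/6J mice. They were 3.3 to 4 months old, against 4.4 to 4.8 months in the C57BL/6J sham mice at 9 h. Strain therefore cannot be told apart from experiment and age in this difference. For the effect of CHI, 0 of 90 strain differences were called by edgeR, with 9 at an unadjusted p under 0.05, where the share of all genes called at 9 h was 0.00567% in gKO, 0.817% in eRestore and 0.00555% in nRestore mice and otherwise at most 0.0114%. The differences ran from -0.42 to 0.40 with standard errors up to 0.26, so moderate differences between strains were not detectable. The effect of CHI did not pass a test of difference between the sexes for any member at any time (0 of 30 by edgeR, with 2 at an unadjusted p under 0.05), where at most 0.00543% of all genes were called.

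Other genes of the clock were counted from a list of 25 symbols, of which 23 were tested. Over the 4 strains at 9 h, 5 were higher after CHI and 2 lower, and 16 did not pass, where 23.9% of all genes were called. The list median was 0.01 beside -0.003 over all genes. The higher ones were Bhlhe41, a repressor at E-boxes (0.20), Cipc, which binds CLOCK (0.18), Wee1, a cell cycle kinase (0.17), Noct, a deadenylase-family gene with a daily rhythm (0.13), and Timeless (0.30). Those lower were Nfil3, the D-box repressor that opposes DBP and TEF (-0.29, SE 0.06, adjusted p = 5.1e-05), and Rorb, an activator at ROR elements (-0.25, SE 0.06, adjusted p = 0.0017). The activator genes Clock and Arntl, the latter encoding BMAL1, were at 0.01 (adjusted p = 0.82) and -0.10 (adjusted p = 0.079). At 24 and 72 h 0 of 23 were called.

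Between sham times the deubiquitinase gene Usp2 fell in all 8 strain and time pairs against 9 h, by 0.56 to 0.80. Hlf, the third leucine zipper factor of the DBP family, fell in both C57BL/6J pairs (0.38 and 0.43), both gKO pairs (0.48 and 0.46) and in nRestore mice at 24 h (0.41). Arntl was called in 2 of the 8 pairs, higher at 72 h by 0.24 in C57BL/6J and by 0.47 in eRestore mice, in the opposite direction to Nr1d1. The number of the 23 genes called higher and lower was 2 and 5 in C57BL/6J at 24 h and 4 and 8 at 72 h, 2 and 4 and then 1 and 3 in gKO, 0 and 1 and then 2 and 2 in eRestore, and 1 and 4 and then 0 and 1 in nRestore mice. The shares of all genes called in these comparisons are those given for the sham members above.

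Markers of several cell types differed between CHI and sham mice at 9 h and are given here beside these results. Over the 4 strains, 4 of 5 microglia markers were lower after CHI (median of the list -0.25), with a summed level of 77.5 to 253 TPM (median 154.5) in CHI and 130.3 to 279 TPM (median 183.9) in sham mice, and 3 of 4 choroid plexus markers were lower, with medians of 23.9 and 46.5 TPM and maxima of 2481 and 6138 TPM. Of 5 astrocyte markers 2 were higher and 0 lower, and of 4 endothelial markers 2 were higher and 2 lower. The endothelial markers had a summed level of 49.7 to 101.9 TPM (median 71.2) in CHI and 50.8 to 87.3 TPM (median 65.4) in sham mice. Of 6 neuronal markers 1 was higher and 0 lower, and 0 of 4 oligodendrocyte and 0 of 4 hypothalamic markers were called. Red blood cell genes had a median sum of 166.4 TPM in CHI and 24.6 TPM in sham mice, with 0 of 4 called. By strain, such a gap was seen in gKO mice only, with medians of 261.3 and 27.9 TPM. In C57BL/6J the CHI and sham medians were 14.8 and 17.6 TPM, in eRestore 29.7 and 21.1 and in nRestore mice 344 and 301.7. The part of these cells in the differences of Tef, Per3, Cry1, Per1 and Cry2 was not tested.

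Cell markers also differed between sham times, beside the falls of Ciart, Nr1d1, Dbp, Per1 and Cry2. In C57BL/6J sham mice 4 of 4 choroid plexus markers were lower at 24 and at 72 h than at 9 h (median -4.42 and -3.82), and 0 were called in the other three strains. Their summed level over all sham mice had a median of 46.5 TPM at 9 h (8.56 to 6138), 23.8 at 24 h (12.6 to 3032) and 24.6 at 72 h (7.25 to 233.8). Of 4 hypothalamic markers tested in C57BL/6J mice, 2 were higher and 1 lower at 24 h and 3 higher and 1 lower at 72 h. Neuronal markers were lower for 2 and 3 of 6 in C57BL/6J (24 and 72 h), 2 and 1 in gKO, 1 and 1 in eRestore and 2 and 0 in nRestore mice. Their summed level had a median of 6117 TPM at 9 h, 5567 at 24 h and 5456 at 72 h. In CHI mice neuronal markers were lower for 5 and 5 of 6 in C57BL/6J, 4 and 4 in gKO, 4 and 4 in eRestore and 3 and 1 in nRestore mice. Microglia markers were higher for 4 and 5 of 5, 3 and 5, 1 and 2, and 3 and 1 in the same order. The part of these cells in the differences between times was not tested.

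Across the 67 sham mice the members moved together to different degrees, given here as Pearson correlations of log2 levels, a description over mice that share time, strain and experiment. Per1 and Cry2 had r = 0.85, Nr1d1 and Ciart r = 0.84 and Nr1d1 and Cry2 r = 0.84, and in the CHI mice the same pairs had r = 0.67, 0.87 and 0.78. Tef and Ciart had r = 0.59 in sham and 0.83 in CHI mice. Of 13387 genes ranked by likeness to Dbp over the sham mice, the 5 closest that were no members included Bhlhe41 (r = 0.78), Ppp2r5b (0.75), Dact2 (0.74) and Net1 (0.73), and in CHI mice these 4 had r = 0.59, 0.73, 0.66 and 0.50. Among the members, Ciart ranked 5, Tef 8 and Nr1d1 11 in likeness to Dbp, Nr1d2 190 and Cry2 337, whereas Per1 ranked 1953, Per2 7620, Per3 7799 and Cry1 9225.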

How the data were processed

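RNA was measured in 200 mice, each mapped to a strain, surgery and time from its sample labels, and all columns of both tables were used. Libraries were poly(A)-selected. The authors aligned the trimmed read pairs with STAR (GRCm39), and Salmon then estimated the reads of each gene. The authors deposited estimated counts per gene, which are neither whole numbers nor scaled for depth, and TPM values, scaled within each sample for transcript length. The labels leave the library kit unnamed, and the annotation release and the use of strand in counting are not given in the sources used here. Of the gene identifiers, 98.9% were found in GENCODE vM39.

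Rounded counts entered edgeR 4.0.16 (R 4.3.3; TMM normalisation, robust quasi-likelihood fit, F test). A gene was tested where 10 counts or more were reached by a number of mice equal to the smallest group. Adjustment of p-values followed Benjamini and Hochberg over all genes tested, and a gene was called at an adjusted p under 0.05. CHI and sham mice were compared with sex and age as covariates (sex alone for comparisons between times, since age follows time). Standard errors come from the F statistics. CPM values are TMM-normalised; levels between genes were compared in TPM only. Intervals are 95% intervals of the log2 difference. For most members the depth of the libraries leaves little counting error, so precision is set mainly by the spread between mice. Ciart had the lowest counts, down to 68, and there counting error is larger. Libraries had no molecular identifiers, so counting error is a lower limit. Per the labels each sample is a separate animal, and no pair of libraries within a group agreed within counting noise.

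The members were given by name, and the other clock genes, glucocorticoid-induced genes and markers were listed by hand. The text names the members, listed genes that were called, and the 5 genes closest to Dbp, of which 1 is not reported here. Members and lists were chosen with earlier results of these data known. Alternatives were DESeq2 1.42.0 with its own size factors or with gene-length offsets, RLE factors, no filter, other covariates, single experiments and leaving out mice. On simulated C57BL/6J data at 9 h, edgeR recovered 90 of 100 genes changed by 1 on the log2 scale and 63 of 100 changed by 0.5, with 5 false calls among 16748 genes. DESeq2 with its own size factors recovered 93 and 70 of 100, with 27 false calls.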

Additional observations from a re-analysis of the deposited data

Results flagged for a closer look

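Single mice stood apart from their group for 3 members, by a gap that is large for the range of the group. Of 160 combinations of a member and a group of 4 to 10 mice, 7 had one, and chance gives about 1 in 20. For Cry1, an eRestore CHI mouse at 24 h was at 18.5 CPM (others 21.7 to 24.4, n = 9), and an nRestore CHI mouse at 9 h at 28.6 CPM (others 18.4 to 22.0, n = 6). One nRestore sham mouse at 24 h stood apart for both Cry2, at 87.8 CPM (others 112.7 to 119.1, n = 5), and Per3, at 32.4 CPM (others 23.9 to 26.1). Per3 was also at 22.7 CPM in an eRestore sham mouse at 24 h (others 24.8 to 25.4, n = 5), at 30.6 CPM in an eRestore sham mouse at 9 h (others 23.4 to 25.9, n = 6) and at 19.6 CPM in an nRestore sham mouse at 9 h (others 26.9 to 28.3, n = 4).

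The effect of CHI differed between times, by the test of the difference itself, for 3 members. At 9 h it exceeded that at 24 h by 0.21 for Tef and 0.26 for Per3 on the log2 scale, and that at 72 h by 0.27 for Tef, 0.30 for Per3 and 0.23 for Cry1. These times also differ in experiment, time of day and age. The part of experiment and time of day in these differences cannot be told apart from that of time after injury.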

How the results depend on the processing

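No member's called difference changed direction under any alternative run, and the calls of Ciart, Nr1d1 and Tef in C57BL/6J mice passed in every one. The number of members called after CHI in single strains at 9 h was 4, and 7 with DESeq2 and its own size factors, and ran from 3 to 5 when single mice were left out. Over the 4 strains at 9 h it was 5, but 3 without the filter on low counts and 4 with DESeq2 and gene-length offsets or with strain as the only covariate, each without Per1, and, in settings chosen after seeing the data, 2 in experiment a alone and 1, Tef, in experiment c alone, where fewer mice were tested. Leaving out single mice gave 4 to 5 there, 1 to 3 for the difference of the CHI effect between 9 and 24 h (2 with all mice, 1 without replicate 3 of the nRestore sham mice at 9 h), 3 to 3 for that between 9 and 72 h, 11 to 15 for sham mice at 24 against 9 h and 11 to 14 at 72 against 9 h. Without the mice of mismatched sex, a setting also added after seeing the data, 1 member instead of 2 was called in eRestore sham mice at 24 against 9 h. For sham strain differences, 0 as tested, 2 were called at 24 h without the filter, and at 9 h 1 with either DESeq2 setting, 2 without the filter and 2 without covariates. The cause of these changes was not tested. No paired analysis was possible because each mouse had 1 surgery and 1 time, and replicate numbers only name the mice of a group.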

Other observations

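Genes that glucocorticoids induce were followed as a list of 10 (Fkbp5, Tsc22d3, Sgk1, Zbtb16, Klf9, Ddit4, Cdkn1a, Nfkbia, Errfi1 and Sult1a1), since the adrenal hormone is one of the signals that set clocks outside the suprachiasmatic nucleus. In C57BL/6J mice at 9 h, 9 of the 10 were higher after CHI, with a list median of 0.64 beside -0.01 over all genes, and 14.1% of all genes were called. In eRestore mice 2 were higher at that time (list median 0.15, 7.34% of all genes called), and 0 were called by edgeR in gKO mice (list median 0.12, 0.199% of all genes) and in nRestore mice (list median 0.44, 0.608% of all genes, n = 6 and 4). In gKO and nRestore mice 1 and 2 of the 10 had an unadjusted p under 0.05, and DESeq2 with its own size factors called 1 in each. Gene by gene in edgeR, the CHI effect at 9 h was called lower than in C57BL/6J for 2 of the 10 in eRestore mice. The median strain difference of the list was -0.64, where 0.817% of all genes were called. In gKO (list median -0.55, 0.00567% of all genes) and nRestore mice (list median -0.40, 0.00555%) 0 were called. These comparisons share the C57BL/6J mice, and the list as a whole was not tested. It was chosen by hand with earlier results of these data known, so its counts beside all genes are a description only. Over the 4 strains at 9 h, where 23.9% of all genes were called, 5 rose: Fkbp5, a chaperone of steroid receptors (1.36, SE 0.14, adjusted p = 5.2e-11), Cdkn1a, a cell cycle inhibitor (1.14, SE 0.17, adjusted p = 9.4e-07), Sult1a1, a sulphotransferase (0.49), Klf9, a zinc finger factor (0.25), and Tsc22d3, which encodes GILZ (0.23). The summed level of the 10 had a median of 627 TPM in the 46 CHI mice and 480 TPM in the 22 sham mice at 9 h. At 24 and 72 h 0 of the 10 were called over the 4 strains by edgeR or DESeq2, with 2 and 0 at an unadjusted p under 0.05 in edgeR. In sham mice against 9 h, 4 and 4 of the 10 were lower in C57BL/6J (24 and 72 h) and 3 and 2 in gKO. In eRestore it was 2 and 4, in nRestore mice 1 and 0, and 0 were higher. The list medians ran from -0.27 to -0.55, and the shares of all genes called are those given for the sham members above. The part of this list in the sham differences of the members was not tested.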
